A study of Mus musculus with 24 samples.

Results

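The distal ends of the mouse autosomes were described from reads counted in bins of 1000000 bp. For each of the 19 autosomes the 11 bins with the largest start coordinate were taken, once bins averaging fewer than 100 reads in the WT and KO table had been set aside, which gave 209 bins of the 2738 in the tables and of the 2582 tested. The bins are numbered from the end inwards, so that position 1 is the last bin of a chromosome. The last partial bins of chromosomes 3, 11 and 15 held a mean count of 0 and fell below the minimum, and there the last bin is the full bin before them. Of the 19 last bins, 16 were narrower than 1000000 bp, the narrowest being 113224 bp on chromosome 2.

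The labels describe TTF cells, female, from a hybrid of the mouse strains C57BL6 and CAST. Their chromatin was immunoprecipitated with antibodies to the histone variant H2AX or to its phosphorylated form γH2AX, with input DNA as the reference. WT cells and cells lacking SIRT7 (KO) gave 2 libraries each of input, H2AX and γH2AX. A second set held H2AX and γH2AX libraries of KO clones (c22 and c9), of the same clones carrying SIRT7-WT, and of clones c5 and c7 labelled HY, an abbreviation the labels leave unexplained. Every group, WT included, had been irradiated (5 Gy, X-rays) and left 30 minutes to recover. Each clone library stands for 1 clone, so a clone and its treatment group cannot be told apart within a library. Columns of the WT and KO table end in NT or Xray although every label states irradiation, and the libraries are named here by those endings. The second table also holds WT replicates 1 and 2. Its WT replicate 2 is the NT-named library, and its WT replicate 1 is a further library. WT columns thus hold 3 different libraries per assay where the labels list 2 samples, and the replicate numbers of those samples match the second table. The Xray-named WT library equals neither of these, and whether it is a labelled sample cannot be told; WT counts with replicates 1 and 2 as the pair are given beside the results. A bin of this width cannot check the SIRT7 deletion itself.

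H2AX is a variant of histone H2A found throughout chromatin, and kinases of the DNA damage response phosphorylate it over long stretches around breaks. Mouse autosomes have their centromere close to the end where numbering starts, so the distal end is the one that runs through a long arm to a telomere. A telomere is an array of TTAGGG repeats bound by proteins that keep the end from being read as a break, and short or unprotected telomeres are known to carry γH2AX. SIRT7 is a deacylase of the sirtuin family that acts on chromatin and is recruited to breaks.

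Some distal ends share sequence with the end of chromosome 8, the only end from which a search was made. Whether this affects how reads are placed there was not tested. In the RefSeq promoter table (build GRCm38.p6), the last bin of chromosome 8, to which the results return, holds the promoter of Gm32856. Of 27025 genes with a promoter in that table, 13 had a promoter of 300 bases sharing at least 10 runs of 14 bases with it, itself included, and 9 of the 13 lay in the distal bins of 5 chromosomes. Of these 9, 5 lay in last bins, while Gm14326 and Gm14410 lay at position 6 of chromosome 2, 4155686 and 4906478 bp from the end. The remaining 4 of the 13 lay inside chromosome 5. The runs that each sequence shares with Gm32856 are in capitals, on the strand of each gene, for the most alike member on each of the 5 chromosomes.
Gm32856 (chr8:129263380-129263679, + strand): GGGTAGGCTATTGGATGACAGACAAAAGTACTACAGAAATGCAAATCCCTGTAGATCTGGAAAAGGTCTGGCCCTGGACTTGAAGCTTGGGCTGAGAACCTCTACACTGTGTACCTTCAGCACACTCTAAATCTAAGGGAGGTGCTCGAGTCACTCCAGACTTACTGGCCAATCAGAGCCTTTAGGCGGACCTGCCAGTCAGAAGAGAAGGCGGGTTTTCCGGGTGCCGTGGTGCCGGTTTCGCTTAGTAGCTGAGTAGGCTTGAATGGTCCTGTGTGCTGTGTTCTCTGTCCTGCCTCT
Gm20939 (chr17:94864651-94864950, + strand): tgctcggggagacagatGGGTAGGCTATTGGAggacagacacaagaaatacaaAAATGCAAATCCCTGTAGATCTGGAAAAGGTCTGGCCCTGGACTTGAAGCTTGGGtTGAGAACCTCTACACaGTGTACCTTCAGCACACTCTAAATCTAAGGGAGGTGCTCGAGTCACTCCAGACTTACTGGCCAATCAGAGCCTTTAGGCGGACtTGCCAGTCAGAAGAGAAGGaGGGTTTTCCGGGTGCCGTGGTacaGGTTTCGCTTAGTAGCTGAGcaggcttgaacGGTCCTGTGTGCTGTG
B230307C23Rik (chr16:97997086-97997385, + strand): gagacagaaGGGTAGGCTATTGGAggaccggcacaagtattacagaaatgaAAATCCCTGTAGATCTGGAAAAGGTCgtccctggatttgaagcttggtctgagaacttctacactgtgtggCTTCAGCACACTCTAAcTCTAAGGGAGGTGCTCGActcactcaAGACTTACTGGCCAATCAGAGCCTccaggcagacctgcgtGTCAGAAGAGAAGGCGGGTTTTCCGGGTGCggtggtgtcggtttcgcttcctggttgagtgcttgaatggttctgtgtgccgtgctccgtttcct
Gm9631 (chr11:121925279-121925578, - strand): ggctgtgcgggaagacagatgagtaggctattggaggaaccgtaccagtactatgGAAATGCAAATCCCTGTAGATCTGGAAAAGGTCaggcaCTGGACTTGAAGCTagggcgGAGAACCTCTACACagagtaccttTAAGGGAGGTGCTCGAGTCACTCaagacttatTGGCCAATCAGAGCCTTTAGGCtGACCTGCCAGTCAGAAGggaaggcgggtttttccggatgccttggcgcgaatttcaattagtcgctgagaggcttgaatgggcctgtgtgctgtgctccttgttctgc
Gm40035 (chr2:181953143-181953442, - strand): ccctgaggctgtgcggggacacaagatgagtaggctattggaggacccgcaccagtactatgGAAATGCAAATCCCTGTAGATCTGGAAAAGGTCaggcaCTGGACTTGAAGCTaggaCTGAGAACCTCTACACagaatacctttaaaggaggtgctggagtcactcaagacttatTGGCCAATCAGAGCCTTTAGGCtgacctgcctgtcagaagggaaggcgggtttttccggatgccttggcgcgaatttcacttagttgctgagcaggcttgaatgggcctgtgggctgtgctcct
Aligned to Gm32856, identity was 95.4% for Gm20939 at the end of chromosome 17, 89.0% for B230307C23Rik on chromosome 16, 87.5% for Gm9631 on chromosome 11 and 87.1% for Gm40035 on chromosome 2. Gm32856, Gm20939 and Gm9631 lie in last bins, and the other two in the second bin, and all of these promoters end 122321 to 210383 bp from the end of the assembled chromosome. No source used here says how reads with more than 1 match were treated. The telomeric hexamer TTAGGG, searched on both strands, occurred in 11.1% of the 108 promoters of last bins, in 12.2% of the 2022 of all distal bins and in 10.6% of all 32851.

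Libraries were deep: 169486373 to 267528743 reads in tested bins in the WT and KO table, 70241979 to 155101144 in the clones, and medians of 57768 to 95881 and 27568 to 66280 reads in a distal bin. Values are CPM, reads per 1000000 reads of a library scaled by TMM, and ratios are on the log2 scale. Tests are edgeR's quasi-likelihood test, 2-sided, with Benjamini-Hochberg adjustment over all tested bins and a threshold of 0.05.

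γH2AX rose towards the very end of the chromosomes and H2AX did not. As the mean over the 19 last bins, log2 γH2AX over input was 0.38 and 0.23 in the NT-named and Xray-named WT libraries and 0.34 and 0.18 in the KO libraries. H2AX over input at the same position was -0.02 and -0.04 in WT and -0.05 and -0.05 in KO. γH2AX over H2AX was accordingly 0.41 and 0.26 in WT and 0.39 and 0.23 in KO, fell to 0.13 and 0.07 at position 2 in WT (0.13 and 0.07 in KO), and lay between -0.08 and 0.05 from position 3 to 11. WT replicate 1, a different library, gave 0.44 at position 1 and 0.13 at position 2. The 11 bins at the opposite, proximal ends had means of 0.03 and 0.01 in WT and 0.04 and 0.02 in KO.

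**Figure D1:**
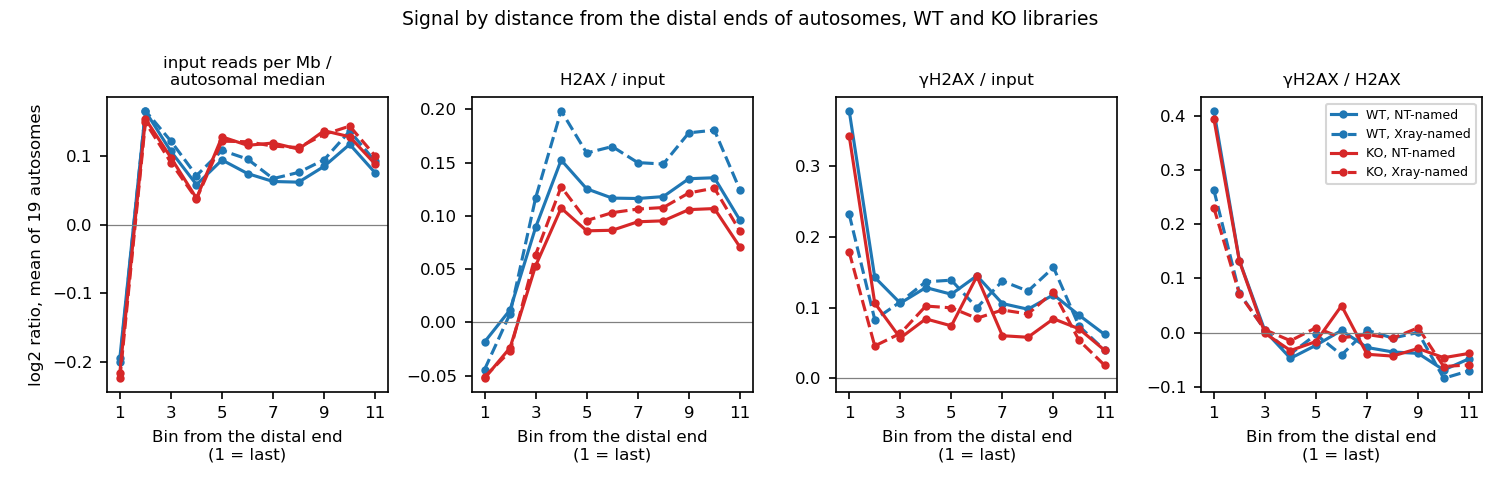
Mean log2 ratio over 19 autosomes (y) against the bin's position from the distal end (x, 1 is the last bin) for input reads per Mb over the autosomal median, H2AX over input, γH2AX over input and γH2AX over H2AX. Each line is 1 library, WT in blue and KO in red, NT-named solid and Xray-named dashed; γH2AX over H2AX peaks at position 1 (0.23 to 0.41) and is near 0 from position 3.

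The rise at the last bin passed the test on most chromosomes. γH2AX exceeded H2AX in 13 of 19 last bins in WT and in 12 in KO and was lower in 0, with medians of 0.29 and 0.17, against 8.64% and 3.41% of all tested bins called higher and medians near 0.00 over all bins. The fitted ratio was above 0 in 18 of 19 in each genotype. In 16 last bins of WT and 15 of KO both γH2AX libraries lay above both H2AX libraries, a state found in 24.6% and 25% of all tested bins. γH2AX also exceeded input in 12 last bins of WT and 11 of KO (34.6% and 25.3% of all bins), without overlap in 16 and 13 (43.4% and 35.7%). H2AX was higher than input in 3 last bins of WT and lower in 4 (30.5% and 25.9% of all bins), and higher in 3 and lower in 3 of KO (21.4% and 28.2%).

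These counts depend on which libraries enter. With WT replicate 1 and the NT-named library as the WT pair, 1 last bin passed for γH2AX over H2AX and 0 for γH2AX over input, and with a replicate block 2 and 11 did. Without the Xray-named H2AX library of WT 4 last bins passed for γH2AX over H2AX and without the NT-named one 8, and without either H2AX library of KO 2 passed. Fitted on the compared groups alone, the KO count was 1. With the NT or Xray ending as a replicate block within each assay, the ratio was fitted at the level of the NT-named libraries. Their mean ratio in the last bins was the higher, 0.41 against 0.26 in WT and 0.39 against 0.23 in KO. At that level the last bins called were 15 in WT and 13 in KO, which does not check the counts over both libraries. Chromosomes 4 and 19 lost their call in both genotypes and chromosome 7 in KO, while chromosomes 10, 15 and 18 gained one in both, 17 in WT and 14 in KO. The gained calls hold for the level of the NT-named libraries and not for both libraries together.

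γH2AX over H2AX in the last bin was above 0 on 19 of 19 chromosomes in the NT-named WT library, in WT replicate 1 and in the NT-named KO library, and on 17 and 16 in the Xray-named WT and KO libraries. The last bin held the highest ratio of the 11 distal bins on 16, 11 and 14 chromosomes in the NT-named, Xray-named and replicate 1 WT libraries and on 16 and 11 in the KO libraries. In the clones it was above 0 on 13 to 17 chromosomes. Over all 11 pairs of γH2AX and H2AX libraries, 9 chromosomes had a ratio above 0 in every pair, namely 1, 2, 3, 6, 8, 12, 16, 18 and 19, although the Xray-named KO pair of chromosome 8 was at 0.00. Chromosomes 4 and 15 had it in the 5 WT and KO pairs and in 0 of the 6 clone pairs. Over the 19 last bins the ratio and the bin width had Pearson correlations of -0.42, -0.36 and -0.38 in the WT pairs and -0.51 and -0.51 in the KO pairs (Spearman -0.41, -0.33, -0.36, -0.60 and -0.50), narrower bins having higher ratios, and -0.24 to 0.11 in the clone pairs (Spearman -0.14 to 0.17). The 19 bins share their libraries, and no test was made of these.

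**Figure D2:**
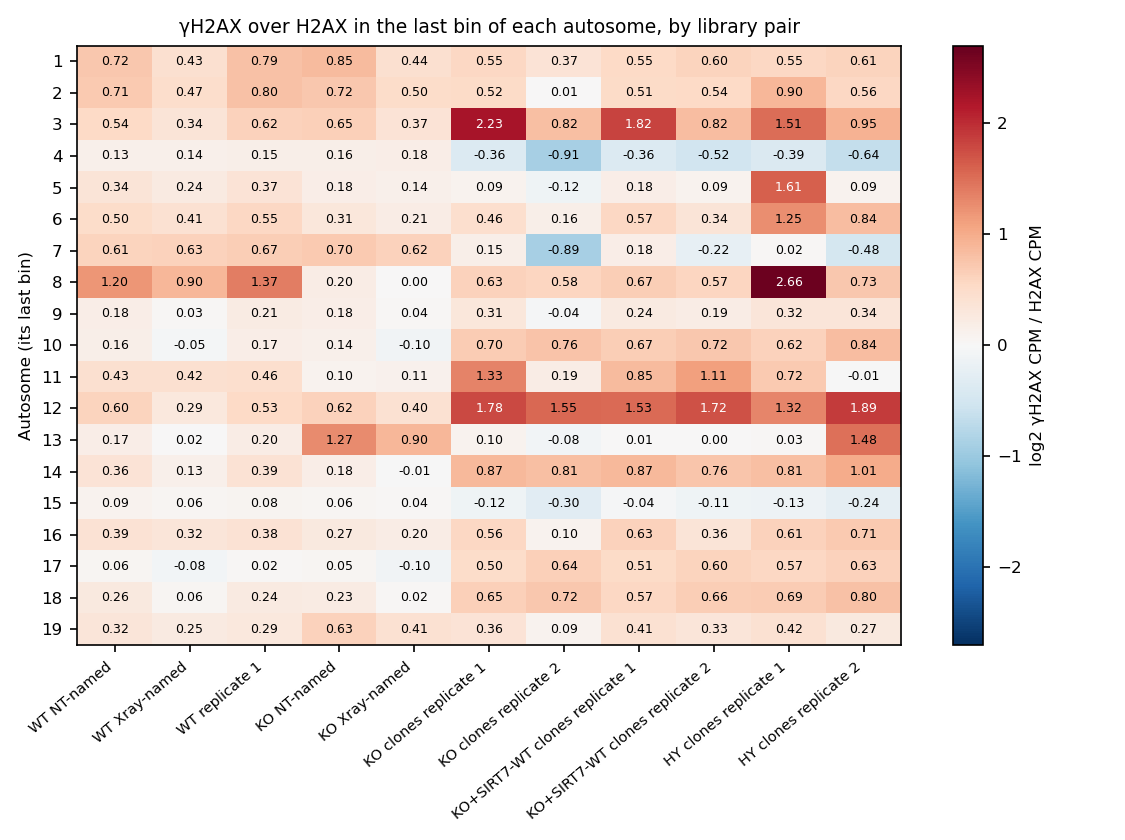
Log2 ratio of γH2AX CPM to H2AX CPM in the last bin (colour and number) for 19 autosomes (rows) and 11 library pairs (columns); in the NT-named and Xray-named columns γH2AX is set against the mean of the 2 H2AX libraries of its genotype. Rows 1, 2, 3, 6, 8, 12, 16, 18 and 19 are at or above 0 throughout, and single cells stand out on chromosomes 3, 5, 8 and 13 (up to 2.66).

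On chromosomes 7, 1, 2 and 12 γH2AX exceeded H2AX in the last bin in both WT and KO. The chromosome 7 bin (chr7:145000001-145441459) holds Tpcn2, a cation channel of endosomes and lysosomes, and the sensory receptor gene Mrgprd. There γH2AX stood at 230 and 233 CPM for WT and 236 and 223 for KO, H2AX 150 and 151 in WT and 145 and 145 in KO, and input 134 and 133 in WT and 138 and 131 in KO. All 4 γH2AX libraries lay above all others, and the log2 ratio to H2AX was 0.62 ± 0.04 (SE, n = 2 against 2; adjusted p = 2.26e-05) in WT and 0.66 ± 0.04 (adjusted p = 2.54e-05) in KO. With the replicate block, and so at the level of the NT-named libraries, it was 0.64 ± 0.17 in WT (adjusted p = 0.0429). In KO it was 0.68 ± 0.17 at that level and missed the threshold (adjusted p = 0.0502). In the clones this bin was not raised: γH2AX was 143 to 284 CPM against 217 to 280 of H2AX, and the ranges overlap.

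The chromosome 1 bin (chr1:195000001-195471971) holds the complement regulator genes Cd46, Cr1l and Cr2. γH2AX was 192 and 157 CPM in WT, 217 and 163 in KO and 153 to 191 in the clones, and H2AX was 118 and 115, 120 and 121, and 105 to 130. The ratio was 0.58 ± 0.12 in WT (adjusted p = 0.0182) and 0.66 ± 0.12 in KO (adjusted p = 0.0268), and it passed in all 3 clone groups, between 0.46 and 0.58. No γH2AX library of this bin reached down to an H2AX library. On chromosome 2 the last bin, the narrowest and without a protein-coding gene, had 20.2 and 17.2 CPM of γH2AX in WT against at most 12.8 of H2AX, a ratio of 0.59 ± 0.10 (adjusted p = 0.00849). That of chromosome 12 (chr12:120000001-120129022), also without a coding gene, had a ratio of 0.46 in WT and 0.52 in KO and of 1.58 to 1.67 in the clone groups, where H2AX was 3.30 to 5.81 CPM and γH2AX 10.3 to 15.5.

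γH2AX at the ends of chromosomes 8, 13 and 11 differed between WT and KO. The last bin of chromosome 8 (chr8:129000001-129401213) holds Ccdc7a, Ccdc7b and Gm32856. Its γH2AX was 203 and 164 CPM in WT and 199 in WT replicate 1. In KO it was 124 and 108. H2AX ran the other way, with 88.1 and 88.2 CPM for WT and 108 and 107 for KO, while input was 106 and 104 in WT and 113 and 114 in KO. γH2AX of WT stood above every KO library and above the input of either genotype, whereas γH2AX of KO overlapped with input. The ratio to H2AX was 1.06 ± 0.09 in WT (adjusted p = 0.000349) and 0.10 ± 0.09 in KO (adjusted p = 0.532), and its difference, KO minus WT, was -0.96 ± 0.13 (adjusted p = 0.0328). The second bin (chr8:128000001-129000000), with Nrp1, a co-receptor for semaphorins and VEGF, and the integrin gene Itgb1, had 485 and 428 CPM of γH2AX in WT and 389 and 379 in KO, against 312 and 303 and 364 and 360 of H2AX. Its difference of ratios was -0.49 ± 0.07 (adjusted p = 0.0329). The ratio of γH2AX to H2AX in WT fell from position 1 to 3, from 1.06 to 0.57 and 0.15.

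On chromosome 13 the last bin (chr13:120000001-120421639) had the reverse order. It holds a cluster of near-copies, among them Tcstv3, a gene active in early embryos, AF067061 and BC147527, and reads of such copies can be shared out between them. In KO, γH2AX was 264 and 205 CPM and H2AX 107 and 111. In WT, γH2AX was 141 and 127 CPM (154 in WT replicate 1) and H2AX 121 and 129, and input was 112 to 116 in all. γH2AX of KO was thus above every other library of this bin. The ratio to H2AX was 1.10 ± 0.10 in KO (adjusted p = 0.000742) and 0.10 ± 0.10 in WT (adjusted p = 0.506), with a difference of 1.00 ± 0.14 (adjusted p = 0.0329). The second bin, with Nnt, Hmgcs1 and Ccl28, had γH2AX of 569 and 514 CPM for KO and 432 and 426 for WT, and a difference of 0.36 ± 0.06 that did not pass (adjusted p = 0.0567).

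At the end of chromosome 11 the DNA content itself differed. Input of the last bin (chr11:121000001-122000000) was 419 and 409 CPM in WT, against 219.9 and 220.5 for KO, a log2 difference of -0.91 ± 0.02 (adjusted p = 1.16e-08), and positions 2, 3 and 4 gave -0.91, -0.90 and -0.96. Position 5 gave -0.12, and positions 6 to 9 were higher in KO, by 0.50, 0.58, 0.54 and 0.54. Input per cell was not measured, and the values are shares of each library. γH2AX of the last bin was 609 and 604 CPM in WT, against 258 and 260.3 for KO, and H2AX 452 and 450.0 against 239.8 and 241. γH2AX fell further than input or H2AX: the ratio to H2AX was 0.43 ± 0.02 in WT (adjusted p = 1.25e-05) and 0.11 ± 0.02 in KO (adjusted p = 0.0333), and the difference was -0.32 ± 0.03 relative to H2AX (adjusted p = 0.00396) and -0.32 ± 0.03 relative to input (adjusted p = 0.00447). The libraries of WT and KO did not overlap in any assay. In positions 2 and 3 γH2AX and H2AX overlapped in WT, at 522 and 572 CPM of γH2AX and 534 and 558 of H2AX in position 2, the bin of Sirt7.

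These were the only bins called in the genome for a difference of γH2AX ratios between KO and WT: 4 relative to H2AX (0.155% of tested bins) and 1 relative to input (0.0387%), all in the distal 2 bins of chromosomes 8, 11 and 13. Over the 209 distal bins the median difference was 0.01 relative to H2AX and -0.04 relative to input, against 0.00 and -0.03 over all bins. With the NT or Xray ending as a replicate block, the difference relative to H2AX held on chromosome 11 (adjusted p = 0.0328) and not at positions 1 and 2 of chromosome 8 (adjusted p = 0.0689 and 0.0621) or on chromosome 13 (adjusted p = 0.0766). Relative to input the block gave 29 distal bins, 28 of them lower in KO, about the share called over all bins (13.4%). Lower values prevailed over the genome too: without the block 1879 of 2582 tested bins lay below 0, and 167 of the 209 distal bins. The 29 included positions 1 to 7 of chromosome 8 and the last bins of chromosomes 6, 8, 11, 14 and 15. The differences in those last bins were -0.16, -0.78, -0.32, -0.14 and -0.05. Leaving out either H2AX library of KO or the Xray-named one of WT left 0 bins relative to H2AX and leaving out the NT-named one of WT left 1. Without either input library of KO or the Xray-named input of WT 0 were called relative to input. On the compared groups alone 0 passed either way.

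Plain levels differed between KO and WT in about the share of distal bins seen over the genome. Of 209, input was higher in KO in 62 and lower in 63 (32.1% and 25.4% of all bins), H2AX in 58 and 77 (30.6% and 32.6%), and γH2AX in 59 and 76 (30.1% and 30.1%). Libraries did not overlap in 86 higher and 99 lower (input; 41.3% and 47.6% of all bins), 69 and 118 (H2AX; 35.1% and 54.9%), and 61 and 83 (γH2AX; 31.7% and 36.1%). The medians were -0.01, -0.05 and -0.06, against -0.01, -0.04 and -0.03 over all bins.

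**Figure D3:**
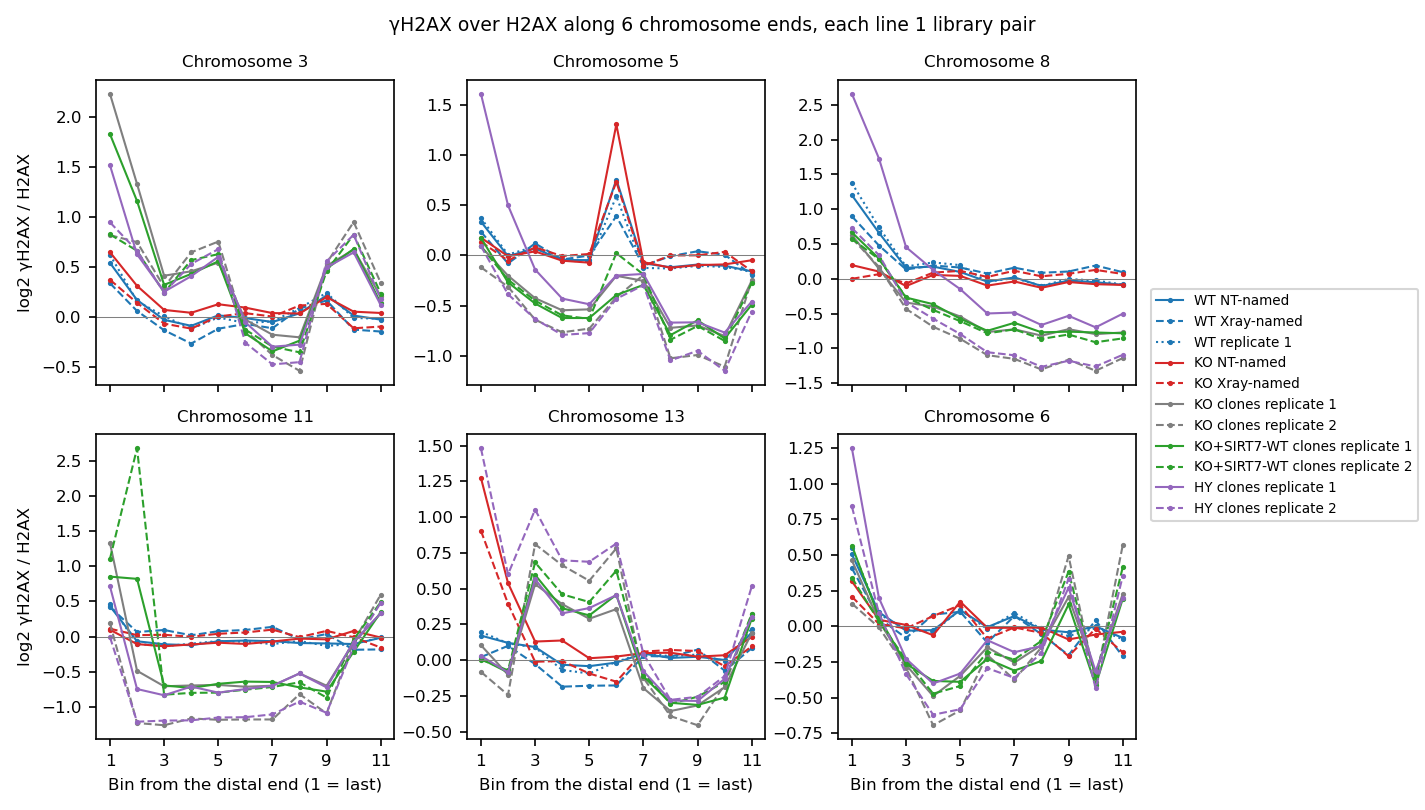
Log2 γH2AX over H2AX (y) by position from the distal end (x) on chromosomes 3, 5, 8, 11, 13 and 6, each line 1 library pair: WT blue, KO red, KO clones grey, KO+SIRT7-WT clones green, HY clones purple, with Xray-named and replicate 2 libraries dashed and WT replicate 1 dotted. The y axes differ between panels; HY replicate 1 reaches 2.66 on chromosome 8 and 1.61 on chromosome 5, and HY replicate 2 reaches 1.48 on chromosome 13.

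At the ends of chromosomes 8 and 11 the share of reads on either parental genome differed between γH2AX and input, on chromosome 11 only in the fit with a library block. Reads assigned to genome1 or genome2, which the sources do not tie to a strain, could be used for the 2 WT libraries of the second table. In the last bin of chromosome 8, genome1 held 62.5% and 60.9% of γH2AX reads (of 10609 and 19049 assigned), but 41.4% and 41.6% of input and 37.7% and 39.3% of H2AX reads. In the second bin it held 61.3% and 60.1% of γH2AX reads, 50.3% and 50.3% of input and 48.5% and 49.3% of H2AX. γH2AX of this end was thus weighted to genome1 in each library, and H2AX was not. The log2 difference of the genome1 to genome2 ratio, γH2AX minus input, was 1.17 at position 1 (adjusted p = 0.0579) and 0.59 ± 0.07 at position 2 (adjusted p = 0.0339). Position 2 was the 1 distal bin called, of 2 in the genome (0.0776% of tested bins). It was not called without either γH2AX library (0.55 and 0.63, adjusted p = 0.487 and 0.595) or without either input library (0.58 and 0.59, adjusted p = 1 for both).

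With the library as a replicate block, 14 distal bins were called (2.52% of all bins). On chromosome 8 they were positions 1 to 5, where the difference was 1.16, 0.59, 0.25, 0.14 and 0.10. On chromosome 11 the last bin was weighted the other way, with 40.9% and 42.2% of γH2AX reads on genome1 against 49.6% and 50.3% of input, a difference of -0.51 (adjusted p = 5.5e-31 with the block, 0.994 without). The last bins of chromosomes 4, 5 and 7 passed with the block at -0.26, -0.23 and -0.36. Away from the last position, the bin at position 6 of chromosome 18 (chr18:85000001-86000000), which holds no protein-coding gene, differed most among those lower on genome1, at -0.57 (adjusted p = 1.81e-23). There genome1 held 59.6% and 58.6% of γH2AX reads, 68.1% and 67.6% of input and 67.7% and 67.5% of H2AX reads. The other 4 were position 2 of chromosome 9 at -0.23, position 6 of chromosome 5 at -0.16, position 5 of chromosome 13 at -0.12 and position 2 of chromosome 11 at -0.10. On chromosome 13, whose γH2AX was raised in KO, WT reads gave 50.0% and 48.5% for γH2AX and 48.3% and 51.0% for input. For H2AX relative to input edgeR called 0 distal bins, with 1 at an unadjusted p under 0.05; DESeq2 was not run on parental counts.

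**Figure D4:**
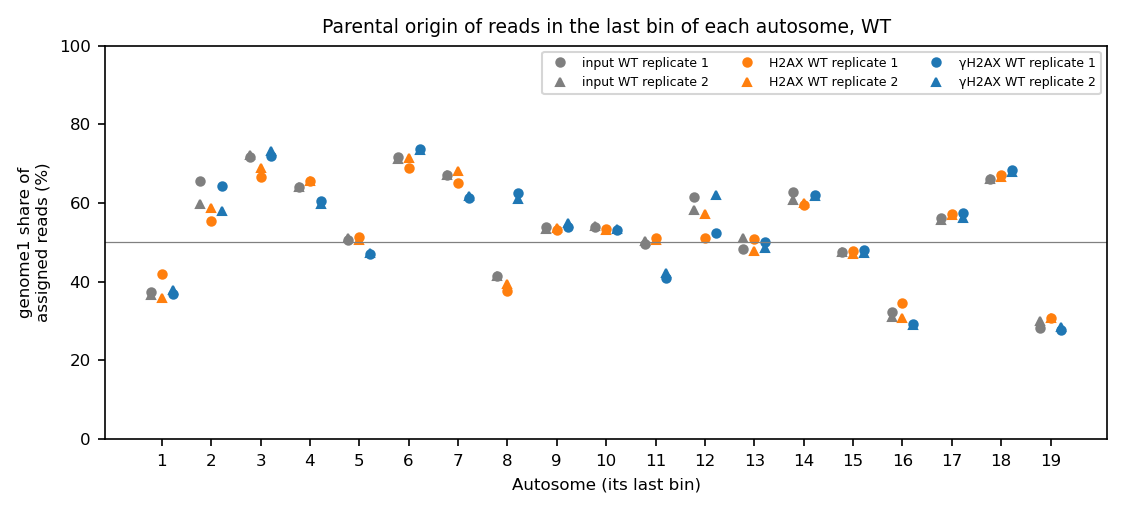
Share of assigned reads on genome1 (y, %) in the last bin of each autosome (x) for input (grey), H2AX (orange) and γH2AX (blue) of WT replicate 1 (circles) and 2 (triangles). On chromosome 8 γH2AX is at 62.5% and 60.9% against 41.4% and 41.6% of input, and on chromosome 11 at 40.9% and 42.2% against 49.6% and 50.3%; on chromosomes 1, 2 and 12 the 2 replicates of an assay also differ.

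In the clones γH2AX also exceeded H2AX at the last position, and single ends differed between libraries. γH2AX over H2AX averaged 0.60 and 0.24 over the last bins of the 2 KO clones, 0.55 and 0.45 in the clones with SIRT7-WT and 0.74 and 0.55 in the HY clones. It dropped below 0 from position 3 on, with means of -0.51 to -0.13 at positions 3 to 11 in the first 2 groups and -0.53 to -0.14 in HY. The last bins were higher in γH2AX than H2AX in 8, 10 and 14 of 19 (32.6%, 30.6% and 31.6% of all bins), and lower in 1 each, on chromosome 4 (29.9%, 25.1% and 27.9%). Over all 209 distal bins 42, 43 and 47 were higher and 102, 97 and 103 lower, with medians of -0.35, -0.32 and -0.36 against 0.00, 0.02 and 0.01 over all bins. Libraries did not overlap in 57, 60 and 54 higher (41.8%, 41.6% and 39.6% of all bins) and 131, 127 and 120 lower (40.5%, 38.7% and 37.3%). Between terciles of gene density the deficit varied, but not in the order of density. Distal minus other autosomal medians were -0.33, -0.31 and -0.35 over all bins in the KO, SIRT7-WT and HY clones. They were -0.13, -0.12 and -0.11 in the tercile with fewest coding genes and -0.29, -0.30 and -0.31 in the middle one. In the tercile with most they were -0.19, -0.18 and -0.20. The part of gene density in the deficit was not tested.

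**Figure D5:**
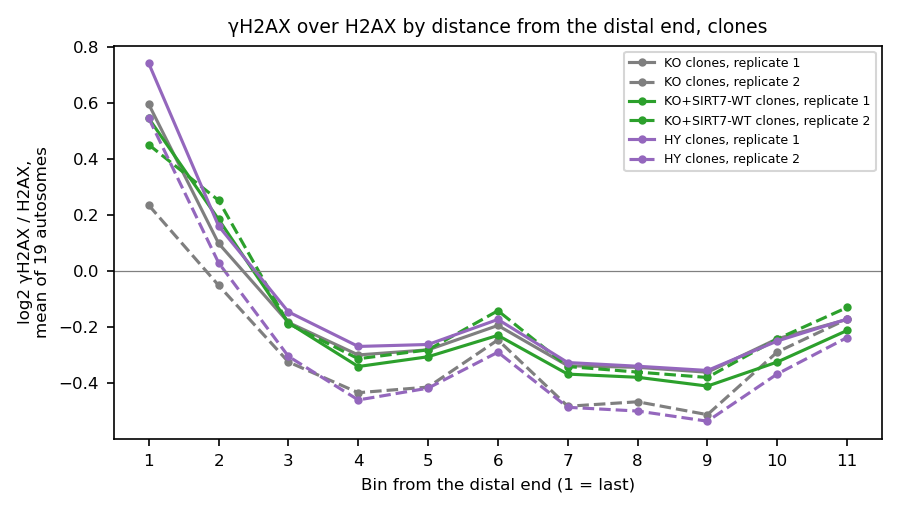
Mean log2 γH2AX over H2AX of 19 autosomes (y) by position from the distal end (x) in 6 clone library pairs, KO grey, KO+SIRT7-WT green and HY purple, replicate 1 solid and 2 dashed. All lines are highest at position 1 (0.24 to 0.74) and below 0 from position 3.

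On chromosome 3 the last bin (chr3:159000001-160000000), with Wls, which carries Wnt proteins to the cell surface, and Rpe65, an enzyme of the visual cycle, had 893 CPM of γH2AX in replicate 1 of the KO clones and 652 in replicate 1 of the SIRT7-WT clones. It had 306 and 312 in their replicates 2, and 504 and 309 in the HY clones. H2AX was 160 to 191 in all 6, so that every γH2AX library exceeded every H2AX library. The ratio was 2.23, 1.82 and 1.51 in the 3 replicates numbered 1 and 0.82, 0.82 and 0.95 in those numbered 2, and 0.34 to 0.65 in WT and KO cells. The second bin repeated the order in the KO and SIRT7-WT clones, with 590 and 505 CPM against 316 and 302.

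HY replicate 1 stood apart on chromosomes 8, 5 and 6. Its γH2AX in the last bin of chromosome 8 was 390 CPM against 109 to 120 in the other 5 clone libraries, with H2AX of 61.9 against 67.1 to 76.8. The ratio of 2.66 fell to 1.73 at position 2, where γH2AX was 973 CPM against 353 to 428 elsewhere. In the last bin of chromosome 5, which holds Stard13 and Rfc3, a subunit of the clamp loader of DNA replication, it had 804 CPM against 280 to 350, and on chromosome 6 440 against 191 to 292. HY replicate 2 stood apart on chromosome 13 instead, with 279 CPM against 114 to 136 and a ratio of 1.48 where the other 5 clones had -0.08 to 0.10. Each of these is 1 library and has no replicate check.

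On chromosome 11 the last bin held 1148 and 594 CPM of γH2AX in the KO clones, 874 and 1111 with SIRT7-WT and 1155 and 778 in HY, against 456 and 519, 483 and 516, and 703 and 781 of H2AX. The ratio passed in the KO clones (0.84 ± 0.25, adjusted p = 0.00957) and with SIRT7-WT (0.99 ± 0.25, adjusted p = 0.00499), and not in HY (0.38 ± 0.25, adjusted p = 0.194), where the 2 levels of HY replicate 2 were nearly equal. The second bin, which holds Sirt7, had 1949 and 9625 CPM of γH2AX and 1103 and 1506 of H2AX in the clones carrying SIRT7-WT. In the KO clones it had 534 and 399 of γH2AX and 746 and 932 of H2AX. Values of this bin in the SIRT7-WT clones therefore cannot be set beside those of other ends, as the introduced gene and the locus cannot be told apart.

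Differences of the γH2AX to H2AX ratio between clone groups were called in 0 distal bins by edgeR and in 0 by DESeq2, both for SIRT7-WT against KO clones and for HY against SIRT7-WT clones (0% of all bins). At an unadjusted p under 0.05 there were 1 and 6 distal bins, of 1 and 6 in all tested bins. The 6 for HY included 4 last bins. The main fits did not pair each KO clone with the same clone carrying SIRT7-WT. Like-numbered libraries of these 2 groups deviated together (correlation of deviations 0.936 for H2AX and 0.854 for γH2AX). Leaving out 1 γH2AX library, replicate 1 of the SIRT7-WT clones, gave 1 distal bin in either comparison, and leaving out replicate 1 or 2 of HY gave 1 and 2 in the second.

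On 6 ends (chromosomes 3, 10, 12, 14, 17 and 18) every clone pair lay above every WT and KO pair. On 3 (chromosomes 4, 7 and 15) every clone pair lay below. How often clone and cell pairs lay apart over all bins was not counted. The clones spread more widely there: quartiles of the fitted ratio over all tested bins were -0.43 and 0.51 in the KO clones and -0.07 and 0.05 in WT. On chromosome 14, whose last bin holds Fgf14, the ratio was 0.76 to 1.01 in the 6 clones and -0.01 to 0.39 in the 5 WT and KO pairs. On chromosome 10, with olfactory and vomeronasal receptor genes and Neurod4, it was 0.62 to 0.84 against -0.10 to 0.17, and on chromosome 17, with Mettl4 and Gm20939, 0.50 to 0.64 against -0.10 to 0.06. On chromosome 18 it was 0.57 to 0.80 against 0.02 to 0.26. The chromosome 4 bin (chr4:156000001-156508116), a gene-dense bin with Isg15 and Agrn, went the other way: γH2AX was 119 to 180 CPM in the clones against 202 to 232 of H2AX, and 125 and 126 in WT against 113 and 116. WT replicates 1 and 2 stand in the same table as the clones and the other cell libraries in another, and the difference between clones and cells was not tested.

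Further in, H2AX and γH2AX rose together over input. H2AX over input climbed from below 0 at position 1 to 0.15 and 0.20 at position 4 in WT (0.11 and 0.13 in KO) and was 0.10 and 0.12 at position 11 and 0.05 and 0.06 at position 12, just outside the bins chosen. γH2AX over input was 0.06 and 0.04 at position 11 and 0.03 and 0.01 at position 12 in WT. Of the 209 bins, 117 had more H2AX than input in WT and 19 less, and 98 and 25 in KO, with medians of 0.12 and 0.08 against 0.00 and -0.03 over all bins. γH2AX was higher than input in 128 and lower in 33 in WT (35.3% of all bins lower), and in 110 and 28 in KO (36.3%), with medians of 0.13 and 0.09 against 0.00 and -0.02. In all, 69.9% of bins were called for γH2AX in WT and 61.5% in KO, and 56.4% and 49.6% for H2AX. Both libraries stood clear of both input libraries in 147 higher and 39 lower bins for γH2AX in WT (43.4% and 43.6%), 136 and 43 in KO (35.7% and 46.4%), and for H2AX in 146 and 47 (45.1% and 45.4%) and 136 and 56 (38.9% and 52%). γH2AX against H2AX was called in few: 27 higher and 13 lower in WT (3.6% lower of all bins) and 21 and 3 in KO (0.387%, and 3.8% in either direction), with medians of 0.00 and -0.01. With the replicate block, which fits this ratio at the level of the NT-named libraries, 46 were higher and 52 lower in WT (41.5% of all bins called in either direction). In KO 46 were higher and 24 lower at that level (25.8%).

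Terciles of gene density gave the same direction. Distal bins exceeded other autosomal bins in γH2AX over input by 0.13 in WT at the median, and by 0.09, 0.10 and 0.11 within the lowest, middle and highest tercile of coding genes per Mb. With WT replicate 1 in place of the Xray-named libraries 0 distal bins passed in WT for either mark against input, and with a replicate block added 114 and 111 did. Without the NT-named or the Xray-named input library of KO the KO counts were 89 and 71 for γH2AX, and 81 and 78 for H2AX, and without the Xray-named H2AX library of KO the latter was 63.

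Position 3 of chromosome 13, with Fgf10, had less H2AX (306 and 293 CPM) and γH2AX (319 and 294) than input (369 and 368). Input itself was sparse at the very end: reads per Mb were -0.19 and -0.20 (log2) from the autosomal median at position 1 in WT, -0.22 and -0.22 in KO, and 0.17 and 0.17, and 0.15 and 0.15, at position 2. Bin widths include any assembly gap, whose part in this was not tested.

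Away from the last position, the largest called ratios of γH2AX to H2AX were in the second bins of chromosomes 8 (WT) and 13 (KO) and in 2 further bins in both genotypes. These were position 6 of chromosome 5 (chr5:146000001-147000000), with the kinase gene Cdk8, Rnf6 and a run of near-identical predicted genes, and position 2 of chromosome 9, with Lars2, the mitochondrial leucyl-tRNA synthetase, and chemokine receptor genes. γH2AX at the former was 700 and 543 CPM for WT and 858 and 577 for KO, against H2AX of 402 and 427, and 346 and 348. NT-named libraries were higher than Xray-named ones in both genotypes. The ratio was 0.59 ± 0.16 in WT (adjusted p = 0.0454) and 1.05 ± 0.16 in KO (adjusted p = 0.0108). At the latter γH2AX was 546 and 444 CPM for WT and 761 and 564 for KO against 333 and 335, and 430 and 423. In the clones γH2AX was below or near H2AX in both bins.

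Genes of telomere maintenance, of the damage response and of the sirtuin family were looked up in the distal bins. Of 20 telomere genes 3 lay there: Rtel1, a helicase that unwinds telomere loops, in position 2 of chromosome 2; Ten1, part of the CST complex, in position 6 of chromosome 11; and Zbtb48, a telomere-binding zinc finger protein, in position 5 of chromosome 4. γH2AX over input in their bins in WT was 0.35 ± 0.03, 0.37 ± 0.06 and 0.41 ± 0.07 (adjusted p = 0.000132, 0.00172 and 0.00195), and H2AX over input 0.18, 0.35 and 0.47. In KO γH2AX over input passed in the same bins, at 0.31 ± 0.03, 0.27 ± 0.06 and 0.35 ± 0.07 (adjusted p = 0.000358, 0.00525 and 0.00404). In the bin of Rtel1 γH2AX also exceeded H2AX, by 0.18 ± 0.03 (adjusted p = 0.00787). Of 22 damage response genes only Brca2, a gene of repair by homologous recombination, lay in a distal bin (position 2 of chromosome 5), with γH2AX over input of 0.07 ± 0.03 in WT (adjusted p = 0.0404) and 0.04 ± 0.03 in KO, which did not pass (adjusted p = 0.298). Of 7 sirtuin genes, Sirt3 and Sirt7 did, and their bins had 0.09 ± 0.03 (adjusted p = 0.0164) and 0.41 ± 0.05 (adjusted p = 0.0011) in WT. In KO the bin of Sirt3 did not pass (0.05 ± 0.03, adjusted p = 0.109) and that of Sirt7 did (0.31 ± 0.05, adjusted p = 0.00181).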

How the data were processed

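Chromatin immunoprecipitation with sequencing (ChIP-seq) of H2AX and γH2AX, and input DNA, was measured in 24 samples. The authors deposited raw counts of reads per 1000000 bp bin of build mm10, unscaled, with sonication to 300 to 500 bp per the labels' protocols. The submitters' processing notes list the aligner Bowtie2 2.2.9 among their tools, with Trimmomatic 0.36 for trimming reads and MACS2 2.2.7.1. Settings, the treatment of duplicates and the assignment to parental genomes are not stated there. Of 144 value columns 42 were used and 102 were not, since parental columns of KO and clones and input columns of clones could not be tied to labelled samples.

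Counts were fitted per table with edgeR 4.0.16 (R 4.3.3), TMM factors, 1 coefficient per group and all 12 libraries sharing the spread (biological coefficient of variation 3.23%, 11.4% in clones and 9.69% for parental counts). Bins with a mean count of at least 100 were tested. In plain ratios the NT-named and Xray-named γH2AX libraries were divided by the mean of the 2 reference libraries of their genotype, and the other libraries by the one of the same replicate number. The distal bins and gene lists were chosen with earlier results of these data known. Bins named are the last bins and, per comparison, up to 5 distal bins in each direction with adjusted p under 0.05 and no overlap of libraries, with list genes or up to 3 genes of known function. Further ends were chosen after their values were seen: the last bins of chromosomes 10, 14, 17 and 18 and single clone libraries. Nothing in the labels says that WT or KO replicates are separate cultures, so p-values reflect the spread among the libraries alone, and that spread may be technical. In the second table, WT replicate 2 held the same counts as the library named NT in 2738 of 2738 bins, while WT replicate 1 differed, with an SD of log2 ratios of 0.219 for γH2AX against 0.101 between the named pair. Like-named KO and WT libraries deviated together (correlation of deviations 0.959 for γH2AX, 0.68 for H2AX and 0.486 for input), so the ending was used as a replicate block where it changed a call. This block had 1 term per assay. It adjusts differences of KO from WT for the ending. Ratios between assays are with it fitted at the level of the NT-named libraries. Genes and promoters came from RefSeq tables of GRCm38.p6. Alternatives were DESeq2 1.42.0, other scalings, no filter, groups alone, replicate blocks, other numbers of bins and leaving out each library. The fit was tested on simulated data. The result for 1 distal bin is not reported here.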

Additional observations from a re-analysis of the deposited data

Results flagged for a closer look

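Effects that differed between groups by a test of the difference itself were found in 4 distal bins. The γH2AX to H2AX ratio in KO minus that in WT was -0.96 in the last bin of chromosome 8 and -0.49 in its second bin, 1.00 in the last bin of chromosome 13 and -0.32 in the last bin of chromosome 11 (edgeR, adjusted p = 0.0328, 0.0329, 0.0329 and 0.00396). The same difference relative to input was -0.32 in the last bin of chromosome 11 (adjusted p = 0.00447), where the log2 difference of input, KO minus WT, was itself -0.91. Between the parental genomes of WT cells, the γH2AX to input ratio on genome1 minus that on genome2 was 0.59 in the second bin of chromosome 8 (adjusted p = 0.0339), the end where the KO value is low. With the replicate block, only chromosome 11 among these bins kept its call relative to H2AX (edgeR, adjusted p = 0.0328). The calls also depended on which libraries entered the fit, as given above. Groups had 2 libraries each, and single samples were not tested for standing apart.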

How the results depend on the processing

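Counts of called bins moved as follows, distal bins first and last bins after. With the WT pair of the second table (an alternative chosen after seeing the data) they were 0 and 0 for γH2AX over input (161 and 12 before), 0 and 0 for H2AX over input (136 and 7), and 2 and 1 for γH2AX over H2AX (40 and 13); with a replicate block added, γH2AX over H2AX gave 5 and 2, and H2AX over input 4 last bins. For γH2AX over H2AX in WT, DESeq2 gave 73 distal bins, the replicate block 98 and the compared groups alone 18, and in KO (24 and 12) 46, 70 and 1, with 1 last bin for groups alone. The 98 and 70 of the block are for the level of the NT-named libraries. Groups alone gave 13 and 16 last bins for H2AX over input in WT and KO (7 and 6), 15 for input in KO against WT (9), 78 and 7 for γH2AX in KO against WT (135 and 11), 0 and 0 for both differences of ratios, and 1 distal bin for HY against SIRT7-WT clones (0). For the KO to WT difference relative to input (1 and 1), autosomal totals gave 4 and 2, DESeq2 6 and 3, and the replicate block 29 and 5; relative to H2AX (4 and 3), DESeq2 gave 8 distal bins and the block 1 and 1. The block by library gave 14 and 5 for the parental ratio (1 and 0). The replicate block changed no other count by over 1.5 times.

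Leaving out 1 library at a time gave these ranges, distal and last: γH2AX over input 123 to 160 and 11 to 17 (WT), 71 to 154 and 8 to 12 (KO, 89 without the NT-named input library and 71 without the Xray-named one); H2AX over input 101 to 123 and 3 to 6 (WT, the lowest without the Xray-named H2AX library, 4 without the NT-named input), 63 to 93 and 2 to 3 (KO, 81 and 78 without an input library); γH2AX over H2AX 6 to 69 and 4 to 13 (WT), 3 to 49 and 2 to 11 (KO). In WT the distal count was 69 without the NT-named and 25 without the Xray-named γH2AX library, and in KO 49 and 15. KO against WT gave 102 to 104 and 6 to 6 for input, 105 to 121 and 6 to 8 for H2AX (6 without the Xray-named WT library) and 123 to 136 and 10 to 12 for γH2AX. The difference relative to input gave 0 to 4 and 0 to 3, and relative to H2AX 0 to 5 and 0 to 3. Clones gave 104 to 136 and 7 to 10 (KO), 83 to 108 and 6 to 9 (SIRT7-WT, the lowest without γH2AX replicate 2 and without H2AX replicate 1), 111 to 138 and 10 to 12 (HY), 0 to 1 and 0 to 0 (SIRT7-WT against KO) and 0 to 2 and 0 to 1 (HY against SIRT7-WT). Parental ratios gave 0 to 1 and 0 to 0 without the library of 1 assay and replicate (chosen after seeing the data), the lone library left being assumed to vary like the others. Without a replicate in all 3 assays no residual degrees of freedom remain.

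Median differences between distal and other autosomal bins that changed sign were those of γH2AX over H2AX in KO (0.026 for the last 5 bins, 0.0064 in the tercile of lowest gene density), of KO against WT for input (-0.0126 in the middle tercile), H2AX (0.0109 for the last 20 bins, 0.0178 in the highest tercile) and γH2AX (0.0062 and 0.0427), and of the parental ratios in the lowest tercile (0.0134 for γH2AX, 0.0082 for H2AX). The causes were not tested. For single named bins 2023 of the recomputed values kept their call and 349 lost it, and 0 changed direction. The named bins had been picked by their calls in the main fit, so a call could be kept or lost but not gained. A distal bin held a median of at least 27568 reads in every library, and groups had 2 libraries each. Single distal bins held far fewer, down to 419 reads in H2AX of HY clones replicate 2.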
